A study of Mus musculus with 36 samples.

Results

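The genes of mitosis and cytokinesis were followed through the development of the mouse heart. The list holds 44 genes that act in chromosome condensation, spindle assembly, the spindle checkpoint, anaphase and the final separation of daughter cells, among the 18193 genes with a probe set of their own on the array. Each gene was represented by the probe set annotated to that gene alone that had the highest mean over the 36 arrays, and 43 of the 44 genes had one. All 43 passed the filter on low values. Ccnb1, which encodes cyclin B1, had no probe set under its symbol and was not analysed here. RNA came from C57BL/6 embryos, an inbred strain, with no transgene or treatment in any group, and was hybridised to Affymetrix mouse arrays. Separated atrial and ventricular chambers made 10 groups: 1 of each chamber at embryonic days E12.5 and E13.5, then E14.5 and E16.5, and last E18.5. At E10.5 and E11.5 the heart was not separated: the description says that the middle part of the embryo, heart included, was used, although the source field names the whole heart, and these 2 groups are called heart region here. Each of the 12 groups had 3 arrays. The descriptions of the arrays called E16.5 give day 15.5 instead, and the title was followed.

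A dividing cell condenses its chromosomes, attaches them through kinetochores to spindle microtubules, and holds the separation back by a checkpoint until every chromosome is attached. Cyclin-bound Cdk1 and the Polo and Aurora kinases drive these steps, the anaphase-promoting complex ends them by marking cyclins and securin for destruction, and a midzone spindle with an actomyosin ring then divides the cytoplasm. Most of these genes are transcribed late in the cell cycle, through the MuvB core with B-Myb and Foxm1, and the CHR and CCAAT promoter elements are the best known sites of that control. Heart muscle cells divide throughout fetal life and largely leave the cell cycle after birth.

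The promoters of the list were looked up in RefSeq, as 250 bases before and 50 after each annotated start in the mouse build GRCm38.p6, and 38 of the 44 genes had at least 1, with 40 promoters in all. The CHR was searched as TTTGAA or TTCGAA and the CCAAT box as CCAAT, each on both strands. Matches of the 2 motifs may share a base, and each was counted. A CHR was in 77.5% of the 40 promoters, against 19.2% of all 32851 mouse promoters and 15.1% of the 18110 promoters of genes on the array. The CCAAT box was likewise in 77.5%, against 37.4% of all promoters, and 52.5% held at least 2 of them, against 11.7%. Both motifs stood together in 70.0% of the promoters of the list and in 7.52% of all promoters. A match describes the letters and not a bound site. The 150 bases before the start are printed for 3 genes with both motifs, Top2a (chr11:99024190-99024339, minus strand), Cdk1 (chr10:69352913-69353062, minus strand) and Ube2c (chr2:164769779-164769928, plus strand), all lower at E18.5 in both chambers with all arrays, although Cdk1 was not called in atria without E12.5 atrium array 1. They are also printed for Melk (chr4:44300767-44300916, plus strand) and Pttg1 (chr11:43425982-43426131, minus strand), which have neither motif and lay at the lower and the upper end of the chamber comparison among called genes. All run 5′ to 3′ on the gene's strand, and capitals mark CHR (also TTCAAA, its other strand) and CCAAT (also ATTGG).
Top2a: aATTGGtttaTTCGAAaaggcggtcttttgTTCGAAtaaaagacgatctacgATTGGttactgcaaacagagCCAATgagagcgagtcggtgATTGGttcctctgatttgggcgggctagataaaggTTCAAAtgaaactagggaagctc
Cdk1: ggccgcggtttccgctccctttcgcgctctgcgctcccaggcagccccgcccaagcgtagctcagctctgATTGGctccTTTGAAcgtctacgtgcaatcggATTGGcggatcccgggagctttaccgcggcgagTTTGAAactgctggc
Ube2c: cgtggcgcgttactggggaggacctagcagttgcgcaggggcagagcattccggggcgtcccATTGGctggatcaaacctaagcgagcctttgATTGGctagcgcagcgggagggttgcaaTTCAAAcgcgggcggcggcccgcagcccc
Melk: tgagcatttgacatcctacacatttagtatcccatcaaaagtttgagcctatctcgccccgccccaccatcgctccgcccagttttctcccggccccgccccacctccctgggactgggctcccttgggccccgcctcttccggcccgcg
Pttg1: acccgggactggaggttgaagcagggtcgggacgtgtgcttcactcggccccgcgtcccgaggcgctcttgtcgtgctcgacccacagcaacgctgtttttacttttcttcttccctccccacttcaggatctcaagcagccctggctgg
Top2a carries 3 CHR matches and 4 CCAAT matches in this window, Cdk1 carries 2 and 2, and Ube2c carries 1 and 2. In the 300 bases searched, Birc5, Mad2l1, Nuf2 and Nusap1 also had neither motif. These 6 genes are therefore the ones of the 38 without the letters of either element.

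The values are intensities on a linear scale, already brought by the submitters to a like level on each array, since the 2% trimmed mean lay between 500.002 and 500.003. Differences are log2 differences of intensity plus 17, with the standard error (SE) of a fit over all 36 arrays. Arrays of a group correlated at 0.941 or more, and 3 arrays a group limit the precision. Nothing in the labels tells if the 3 arrays stand for separate litters or embryos, so p-values cover only the spread between samples, which may be technical. Over the mean of 5 ages, 5 of 5 atrial markers were higher in atria and 4 of 4 ventricular markers were lower. At single ages 3 to 5 atrial markers were higher. All 4 ventricular markers were lower at E13.5, E16.5 and at E18.5, but 2 were at E12.5 and none at E14.5. Atrial arrays 1 and 2 of E14.5, 2 of E16.5 and 1 of E18.5 nevertheless had ventricular markers above the mean of all arrays. Fewer dividing cells and less of these RNAs per cell cannot be told apart in such bulk samples.

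Atrial arrays also stood apart in the mitosis genes themselves. The score, which is the mean log2 value of the 43 genes on an array minus its mean over 36 arrays, was 0.60 on E12.5 atrium array 1 and 0.00 and -0.02 on arrays 2 and 3. On array 1, 42 of 43 genes lay above both other arrays of the group, with a median log2 difference of 0.62, where 33.2% of all tested probe sets lay above both and the median of all was -0.05. The erythroid markers summed to 61021 on this array, the highest of the 36, against 49091 and 38422 on arrays 2 and 3. Its endothelial markers summed to 6785, against 9294 and 10990.3. E13.5 atrium array 2 went the other way: its score was -0.33, against 0.02 and 0.10, and 41 of 43 genes lay below both other arrays, against 33.1% of all probe sets. What set these arrays apart was not tested. Atrial values of single genes and counts are given with all arrays unless said otherwise. Values without E12.5 atrium array 1 stand beside many of them but not all. The genes still called lower with age in atria without that array are named with the atrial counts.

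**Figure D1:**
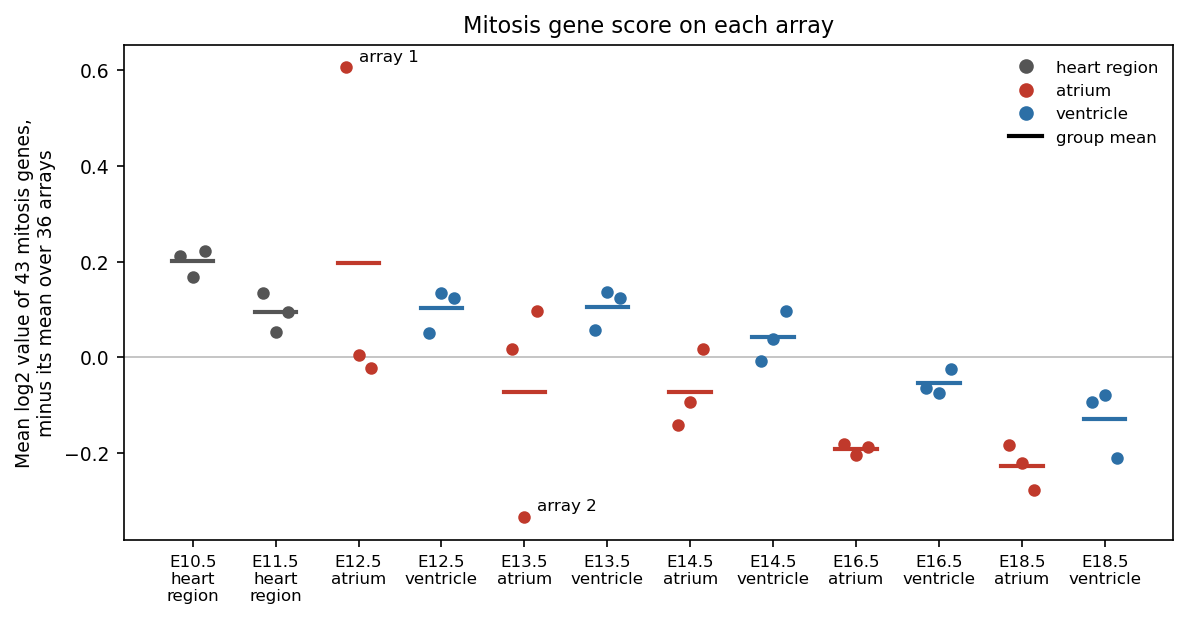
Mitosis gene score on each of the 36 arrays (vertical axis, log2 units relative to the mean of all arrays), by group (horizontal axis), with bars at the group means. The score lies between 0.17 and 0.22 in the E10.5 heart region, between -0.28 and -0.18 in E18.5 atria and between -0.21 and -0.08 in E18.5 ventricles, and E12.5 atrium array 1 (0.60) and E13.5 atrium array 2 (-0.33) stand outside their groups.

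Over the whole course the mean score was highest in the E10.5 heart region and in E12.5 atria, the second through array 1, and lowest in E18.5 atria. Age and dissection cannot be told apart between the unseparated heart region and the chamber groups. The score was 0.20 ± 0.03 at E10.5 and 0.09 ± 0.04 at E11.5 in the heart region (SD, n = 3 each). In ventricles it was 0.10 ± 0.05 at E12.5 and 0.11 ± 0.04 at E13.5, then 0.04 ± 0.05 at E14.5, with -0.05 ± 0.03 at E16.5 and lastly -0.13 ± 0.07 at E18.5. In atria it was 0.20 ± 0.35, -0.07 ± 0.23, -0.07 ± 0.08, -0.19 ± 0.01 and -0.23 ± 0.05 at the same ages. The wide spread of the atrial groups at E12.5 and E13.5 is that of these 2 arrays. The highest group mean was that of the E10.5 heart region for 18 genes and that of E12.5 atria for 17, or for 23 and 3 genes without E12.5 atrium array 1. The lowest was that of E18.5 atria for 19 genes, E16.5 atria for 11 and E18.5 ventricles for 8, or 19, 10 and 8 without that array. Anln, the anillin that organises the contractile ring, varied least with and without that array, its highest group mean being 1.16-fold its lowest (E16.5 atria over the E11.5 heart region). With all arrays Mki67 varied most, at 2.38-fold (E12.5 atria over E18.5 atria), followed by Melk at 2.21-fold (E10.5 heart region over E16.5 atria). Without that array Melk, still at 2.21-fold, came before Mki67, at 2.03-fold (E10.5 heart region over E18.5 atria).

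**Figure D2:**
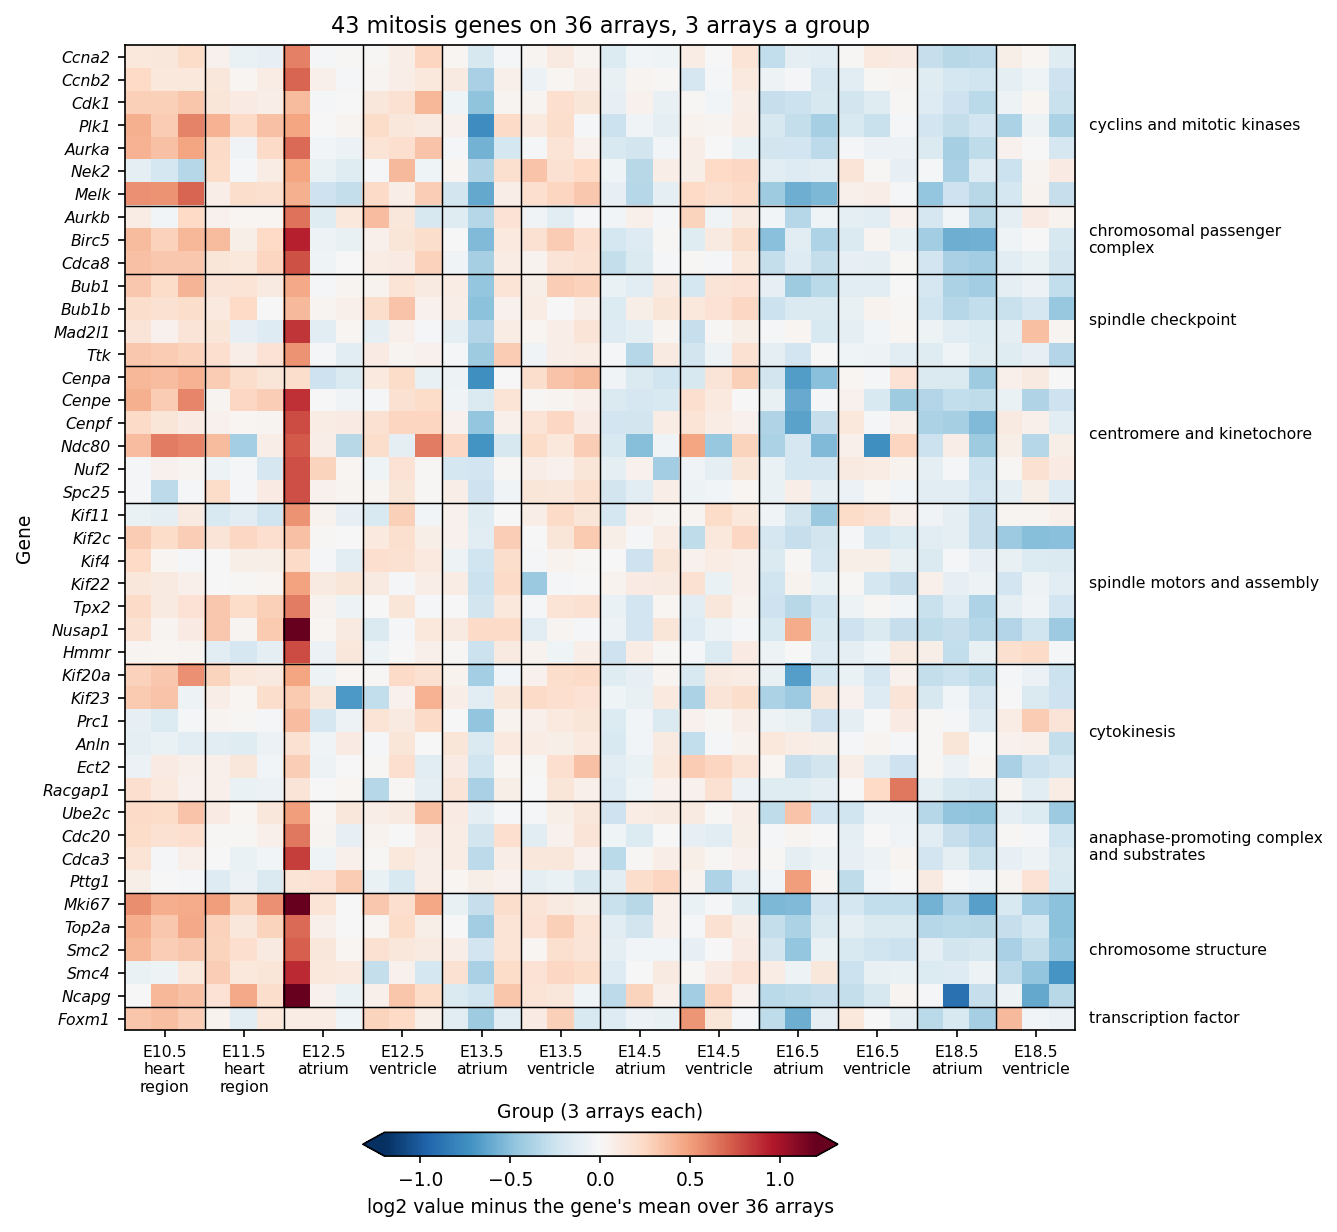
Each of the 43 genes (rows, ordered by role) on each of the 36 arrays (columns, 3 to a group), coloured by log2 value minus the gene's mean over all arrays, with colours ending at 1.2 in either direction. Red predominates at E10.5 and blue at E16.5 and E18.5, E12.5 atrium array 1 is red in nearly every row, and Anln stays pale throughout.

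The change between the unseparated samples was below the threshold for every member. No gene of the 43 was called in the E11.5 heart region against E10.5, where 0.928% of all probe sets were called higher and 0.227% lower, and 4 had an unadjusted p under 0.05. The median log2 difference was -0.12, against 0.01 over all probe sets. For 20 genes all E11.5 arrays lay below all E10.5 arrays (background 13.7%), and for 2 they lay above (background 15.1%). The largest negative differences were those of Ndc80 at -0.51 ± 0.27 (adjusted p = 0.479), Melk at -0.44 ± 0.14 (adjusted p = 0.142) and Foxm1 at -0.32 ± 0.14 (adjusted p = 0.322). At the positive end stood Nek2 at 0.32 ± 0.15 (adjusted p = 0.367), Spc25 at 0.22 ± 0.13 (adjusted p = 0.542) and Smc4 at 0.20 ± 0.15 (adjusted p = 0.671).

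In ventricles, 10 of the 43 genes were lower at E18.5 than at E12.5 and none was higher. Across all tested probe sets, 16.0% were lower and 12.7% higher, so that the list's 23.3% lower stood not far above the background. The 10 genes were Mki67, Kif2c, Smc2, Bub1b, Plk1, Top2a, Ube2c, Cdk1, Ect2 and Kif4, with log2 differences between -0.69 and -0.31. The median of the 43 was -0.22, against -0.05 over all probe sets, and the single differences ran from -0.69 for Mki67 to 0.15 for Racgap1. For 26 genes all 3 E18.5 arrays lay below all 3 E12.5 arrays (background 22.3%). The E18.5 ventricles retained 61.8% to 111% of the E12.5 mean intensity, with a median of 85.3%. The number of genes called was 6 without E12.5 ventricle array 2, 6 without E12.5 ventricle array 3, 5 without E18.5 ventricle array 3, and 5 after median centring of each array. The shares of all probe sets lower in these fits are not given here, so a general loss of calls cannot be told from one in the list. Erythroid markers were lower too: 5 of 7 were called, and their sum was 1629 to 2079.5 in E18.5 ventricles, against 25184.5 to 48652 in E12.5 ventricles, with none at 0. Cardiomyocyte markers summed to 66857 to 82801 in E18.5 ventricles, against 59760 to 68547 in E12.5 ventricles, and 4 of 6 were higher. Fibroblast and matrix markers summed to 29345 to 33455, against 14422 to 21184, and 4 of 5 were higher. Epicardial markers were lower in 2 of 5 cases and higher in 1, and smooth muscle markers were lower in 2 of 3. The part of these cells in the mitosis result was not tested.

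In atria, 25 of the 43 genes were lower at E18.5 than at E12.5 and none was higher. This was 58.1% of the list, against 11.7% of all probe sets lower and 12.6% higher. All 43 differences were below 0, between -1.09 for Mki67 and -0.03 for Anln, with a median of -0.43 against 0.01 over all probe sets. For 28 genes the arrays of the 2 ages did not overlap (background 19.5%). The count of 25 rested on 1 array, and it also changed with the number of arrays in the fit. A fit of the 6 compared arrays alone, in which fewer arrays estimate the spread, called 3 genes. The share of all probe sets lower in that fit is not given here. Without E12.5 atrium array 1, 7 genes were lower, Mki67, Cenpf, Ube2c, Birc5, Top2a, Cdca8 and Ccna2, or 16.3% of the list with 6.72% of all probe sets lower, and the median was -0.22. With E13.5 atrium array 2 left out as well, 10 were lower, with 7.08% of all probe sets lower. Leaving out the atrial arrays with ventricular markers gave 24, with 10.0% of all probe sets lower. The E18.5 atria retained 42.0% to 98.0% of the E12.5 mean intensity with all arrays, with a median of 72.8%, and 64.9% to 106% without array 1, with a median of 85.7%. All 7 erythroid markers tested were lower in E18.5 atria, with a sum of 3860 to 4474 against 38422 to 61021 in E12.5 atria and none at 0. Without array 1 all 7 were lower as well. Liver markers were lower in 2 of 5 cases and higher in 1, with a sum of 1009 to 2265 in E18.5 atria, against 2429, 18340.3 and 2494 on the E12.5 atrial arrays. Without array 2, which had the high sum, 27 mitosis genes were lower, but the share of all probe sets lower in that fit is not given here. Epicardial markers were lower in 3 of 5 cases and smooth muscle markers in 2 of 3, with array 1 and without it. Fibroblast and matrix markers were higher in 3 of 5 cases and lower in 1, or 1 and 1 without array 1. Cardiomyocyte markers were higher in 2 of 6 cases (1 without array 1), endothelial markers in 2 of 5 (also 2) and macrophage markers in 2 of 4 (1), with none lower. Lung and foregut markers summed to 490 to 12035 in E18.5 atria, with a median of 608, against 187 to 484 in E12.5 atria. Without array 1, 0 of 5 were called in either direction. The part of these cells in the atrial result was not tested.

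**Figure D3:**
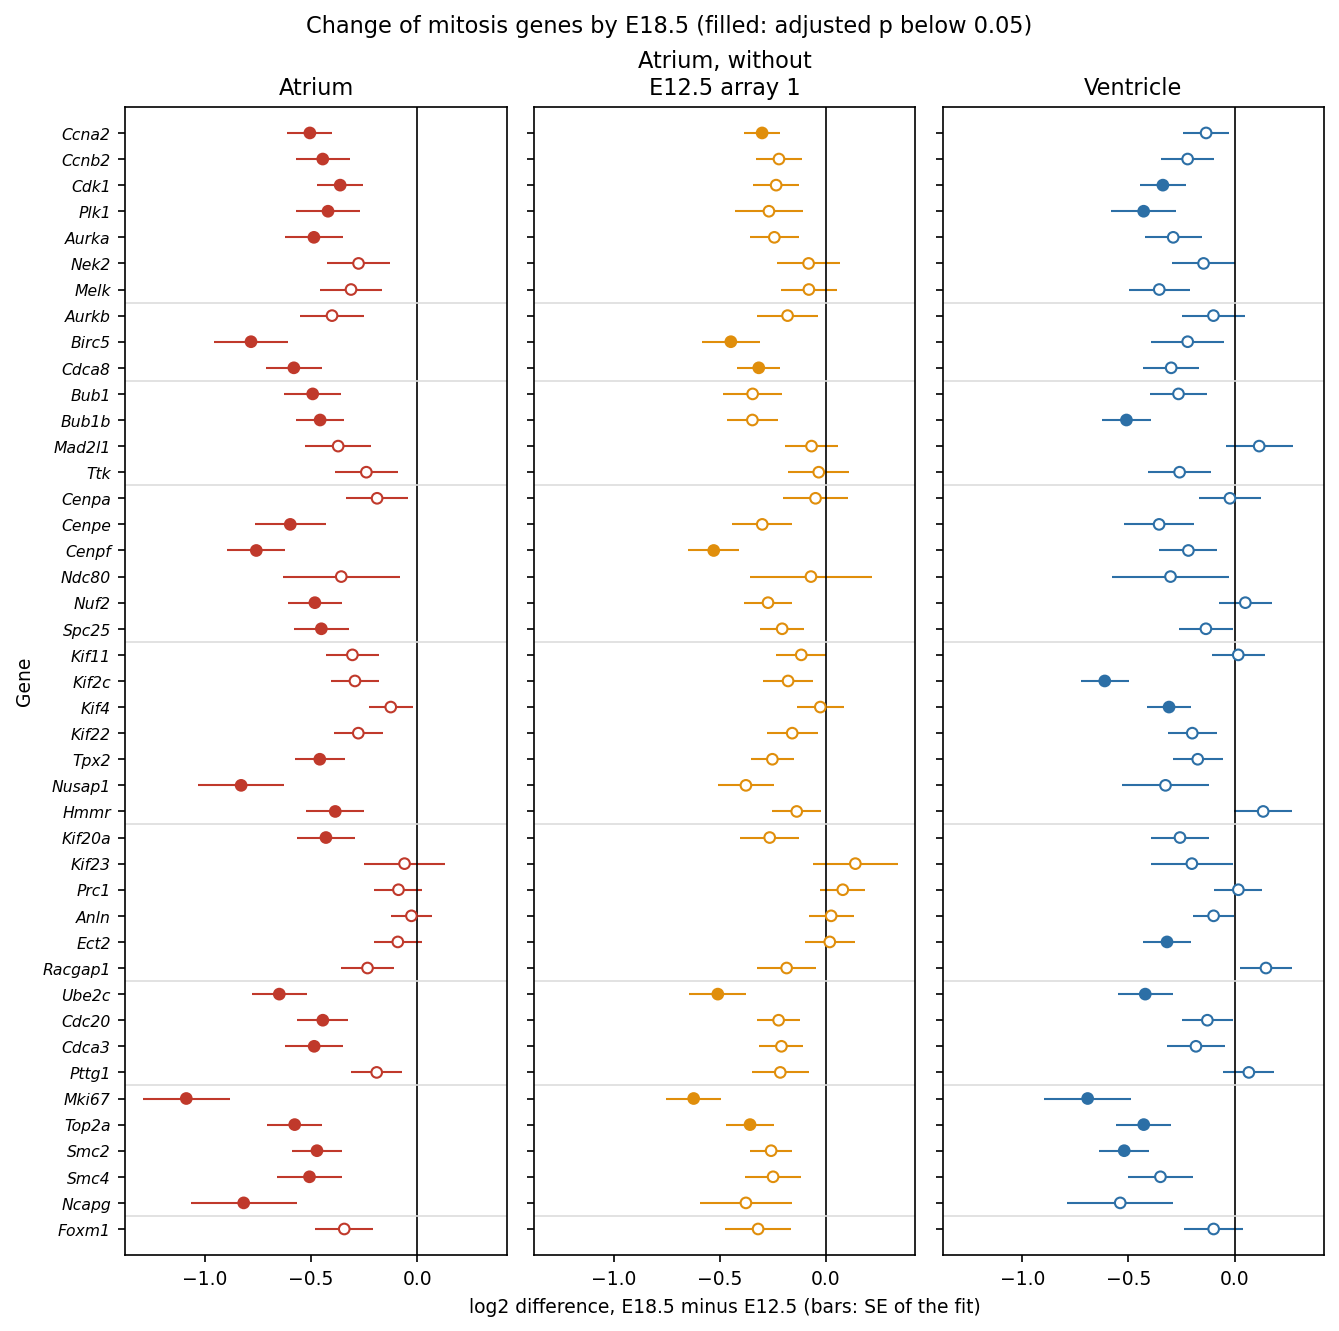
Log2 difference of E18.5 against E12.5 for the 43 genes (rows, grouped by role) in atria, in atria without E12.5 array 1 and in ventricles, with bars of 1 SE and filled points for genes past an adjusted p of 0.05. All 43 atrial differences lie below 0 and 25 are filled with all arrays, 7 are filled without E12.5 atrium array 1, and 36 ventricular differences lie below 0 with 10 filled.

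Chromosome structure genes had median differences of -0.52 in ventricles and -0.58 in atria for E18.5 against E12.5, or -0.36 in atria without E12.5 atrium array 1. They are Mki67, the Ki-67 protein that coats mitotic chromosomes, Top2a, the topoisomerase that untangles sister DNA, and the condensin subunits Smc2, Smc4 and Ncapg. In ventricles 3 of the 5 were lower, and in atria 5 of 5, or 2 without E12.5 atrium array 1. In atria, Mki67 read 9959, 3991 and 3578 at E12.5, 3335, 2927 and 4121 at E13.5, 2949, 2816 and 3718 at E14.5, 2438, 2455 and 3029.6 at E16.5, and 2389, 2713 and 2264 at E18.5. In ventricles, Mki67 read 4449, 4087 and 4919.6 at E12.5, 3966, 3826 and 3747 at E13.5, 3358, 3522 and 3215 at E14.5, 3069, 2898 and 2903 at E16.5, and 3126, 2675 and 2518 at E18.5. Mki67 in the heart region read 5259.6, 4817 and 4852 at E10.5 and 5031, 4289.6 and 5213 at E11.5. E12.5 atrium array 1 was higher than any other array, and in both chambers every E18.5 array lay below every E12.5 array. Mki67 was 1.62-fold lower in E18.5 than in E12.5 ventricles, a log2 difference of -0.69 ± 0.21 (adjusted p = 0.0113). In atria its difference was -1.09 ± 0.21 (adjusted p = 0.000305) with all arrays and -0.62 ± 0.13 (adjusted p = 0.00168) without E12.5 atrium array 1.

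In atria, Top2a read 6509, 4209 and 4024 at E12.5, 4067, 3022 and 4531 at E13.5, 3694, 3466 and 4216 at E14.5, 3316, 3113 and 3593 at E16.5, and 3188, 3230.5 and 3209.8 at E18.5. In ventricles, Top2a read 4102, 4717 and 4239 at E12.5, 4552, 4931 and 4545 at E13.5, 4012, 4582 and 4268 at E14.5, 3748, 3595 and 3586 at E16.5, and 3330.4, 3503 and 2875 at E18.5. Top2a in the heart region read 5478, 5076 and 5551 at E10.5 and 4889, 4457 and 4883 at E11.5. The E10.5 arrays were the highest apart from E12.5 atrium array 1, and E18.5 arrays did not overlap those of E12.5 in either chamber. Top2a, whose printed promoter bases hold 3 CHR matches, differed by -0.43 ± 0.13 (adjusted p = 0.013) in ventricles. In atria the value was -0.58 ± 0.13 (adjusted p = 0.00157), and -0.36 ± 0.11 (adjusted p = 0.0342) without E12.5 atrium array 1.

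In atria, Ncapg read 1168, 479 and 436 at E12.5, 408, 389.8 and 586 at E13.5, 369, 559.6 and 482 at E14.5, 367, 372 and 379 at E16.5, and 459, 242 and 378 at E18.5. In ventricles, Ncapg read 482, 586 and 542 at E12.5, 519.5, 512 and 445 at E13.5, 342, 555 and 481 at E14.5, 376, 402 and 474 at E16.5, and 442, 297 and 364 at E18.5. Ncapg in the heart region read 465, 614 and 597 at E10.5 and 524, 639 and 539 at E11.5. Its arrays scattered widely, E12.5 atrium array 1 was the highest of all, and E18.5 atrium array 1 lay inside the range of E12.5 atria. Ncapg differed by -0.54 ± 0.25 (adjusted p = 0.109) in ventricles, which did not pass, and by -0.82 ± 0.25 (adjusted p = 0.0165) in atria, or -0.38 ± 0.22 (adjusted p = 0.27) without array 1. In atria, Smc4 read 7657, 4492 and 4440.5 at E12.5, 4643, 3118 and 4780.1 at E13.5, 3678, 4089.7 and 4429 at E14.5, 4353, 3937 and 4504 at E16.5, and 3646, 3690.1 and 3940.1 at E18.5. In ventricles, Smc4 read 3363, 4251 and 3541 at E12.5, 4614, 4886 and 4767 at E13.5, 4143, 4394 and 4637 at E14.5, 3426, 3860.3 and 3876 at E16.5, and 3299, 2958 and 2499 at E18.5. Smc4 in the heart region read 3883, 3919 and 4473 at E10.5 and 5045, 4474 and 4542 at E11.5. The 3 ventricular arrays of E18.5 were the lowest of that gene in any ventricle. Its differences with age were -0.35 ± 0.15 (adjusted p = 0.0837) in ventricles and -0.51 ± 0.15 (adjusted p = 0.0138) in atria, or -0.25 ± 0.13 (adjusted p = 0.228) in atria without array 1. Smc2 read 2624, 2823 and 2496 in E18.5 ventricles, against 3918, 3777 and 3706 in E12.5 ventricles, with no overlap and a difference of -0.52 ± 0.12 (adjusted p = 0.00131).

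Cyclins and mitotic kinases had median differences of -0.29 in ventricles and -0.42 in atria, or -0.23 in atria without array 1. Of these 7 genes, 2 were lower in E18.5 ventricles and 5 in E18.5 atria, or 1, the cyclin gene Ccna2, without E12.5 atrium array 1. In atria, Cdk1 read 5043, 3820.2 and 3898 at E12.5, 3748, 2766 and 3972 at E13.5, 3627, 4025 and 3651 at E14.5, 3211, 3249.5 and 3406 at E16.5, and 3482, 3265 and 3099 at E18.5. In ventricles, Cdk1 read 4274, 4409 and 5114 at E12.5, 3979.9, 4456 and 4285 at E13.5, 3912, 3806 and 4092 at E14.5, 3338, 3499 and 3917 at E16.5, and 3731, 3945 and 3233 at E18.5. Cdk1 in the heart region read 4751, 4735 and 4910.1 at E10.5 and 4309, 4158 and 4111 at E11.5. The kinase of mitotic entry was highest at E10.5 apart from single arrays of E12.5 in each chamber, and E18.5 lay wholly below E12.5 in both chambers. Cdk1 differed by -0.34 ± 0.11 (adjusted p = 0.0178) in ventricles and by -0.36 ± 0.11 (adjusted p = 0.0134) in atria, or -0.23 ± 0.11 (adjusted p = 0.158) without array 1. In atria, Plk1 read 1855, 1334 and 1364 at E12.5, 1376, 788 and 1558 at E13.5, 1111, 1290.0 and 1231 at E14.5, 1162, 1089.9 and 1003 at E16.5, and 1131, 1087 and 1134 at E18.5. In ventricles, Plk1 read 1549, 1459.7 and 1436 at E12.5, 1444, 1537 and 1307 at E13.5, 1366, 1360.2 and 1416 at E14.5, 1167, 1102 and 1304 at E16.5, and 1019, 1272 and 1015 at E18.5. Plk1 in the heart region read 1788, 1644 and 2022 at E10.5 and 1783, 1564 and 1701 at E11.5. E13.5 atrium array 2 was the lowest of all arrays, and no E18.5 array reached an E12.5 array of its chamber. Plk1, the Polo kinase, differed by -0.43 ± 0.15 (adjusted p = 0.0337) in ventricles and by -0.42 ± 0.15 (adjusted p = 0.0426) in atria, or -0.27 ± 0.16 (adjusted p = 0.291) without array 1. Ccna2, whose product is cyclin A, was lower in atria with array 1, at -0.51 ± 0.11 (adjusted p = 0.000874), and without it, at -0.30 ± 0.08 (adjusted p = 0.0159), and its ventricular difference was -0.13 ± 0.11 (adjusted p = 0.377). Aurka, the spindle pole kinase, differed by -0.29 in ventricles and -0.49 in atria, Ccnb2, a B-type cyclin, by -0.22 and -0.44, and Nek2, a centrosome kinase, by -0.15 and -0.28, where the atrial values of Aurka and Ccnb2 passed with all arrays.

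**Figure D4:**
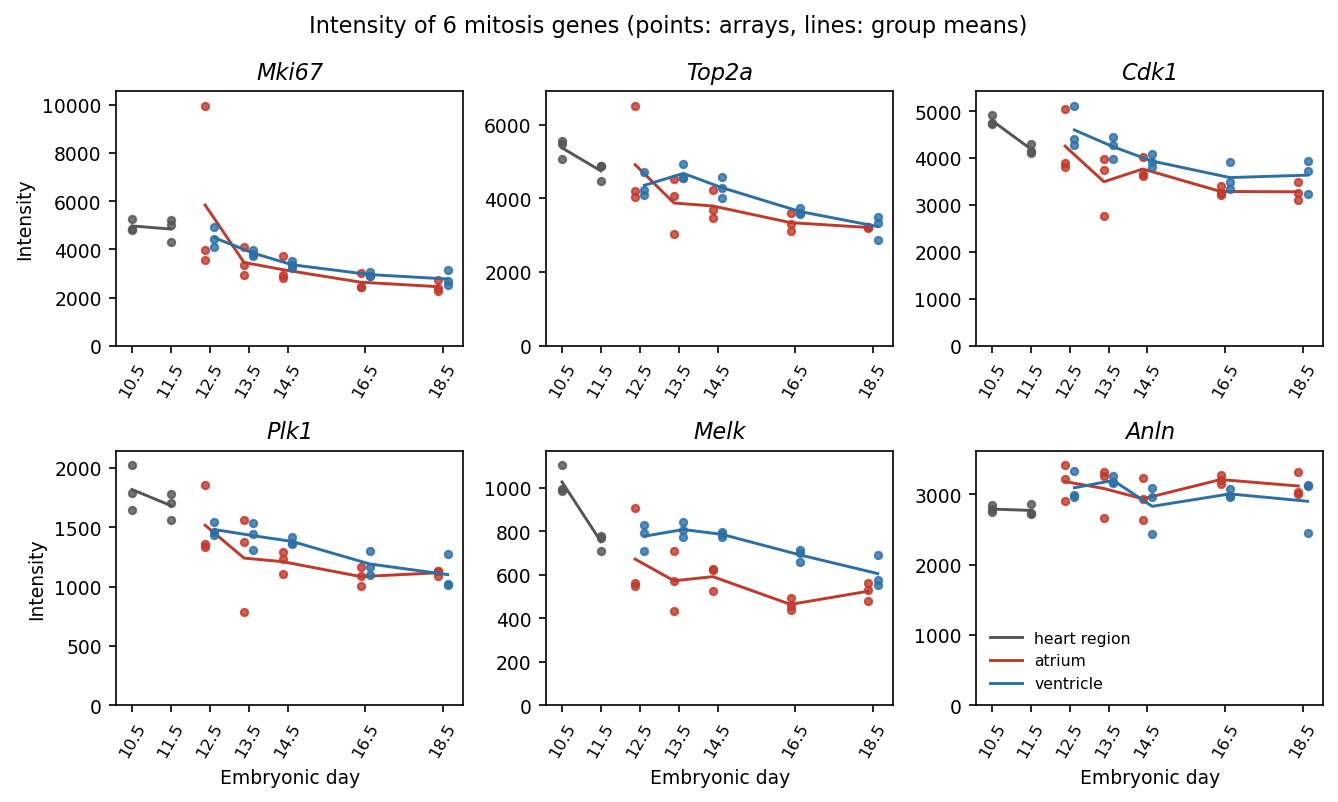
Intensity (vertical axis, linear, from 0) by embryonic day (horizontal axis) of 6 genes, with a point for each array and lines through group means, in atria, ventricles and the heart region. Mki67, Top2a, Cdk1 and Plk1 decline with age and in them E12.5 atrium array 1 stands above the other arrays of its group. Melk lies lower in atria than in ventricles, and the lines of Anln are nearly level.

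The chromosomal passenger complex, which corrects faulty attachments, had no gene past the threshold in ventricles and 2 of 3 in atria, the same number without E12.5 atrium array 1. Aurkb is its kinase and Birc5, or survivin, and Cdca8, or borealin, anchor it. In atria, Aurkb read 1364, 780.0 and 940.2 at E12.5, 777, 678 and 972 at E13.5, 841, 901 and 847 at E14.5, 845, 677 and 834 at E16.5, and 746, 841 and 682 at E18.5. In ventricles, Aurkb read 1118, 950.3 and 754 at E12.5, 835, 783 and 846 at E13.5, 1039, 836 and 929 at E14.5, 798, 786 and 896 at E16.5, and 793, 924 and 886 at E18.5. Aurkb in the heart region read 921, 842 and 1021 at E10.5 and 895, 878 and 877 at E11.5. The ages overlapped in both chambers and array 1 of E12.5 atria was the highest of all. Aurkb, measured by a probe set that may also bind related transcripts, differed by -0.10 ± 0.15 (adjusted p = 0.672) in ventricles and -0.40 ± 0.15 (adjusted p = 0.0504) in atria, or -0.18 ± 0.14 (adjusted p = 0.45) without array 1. In atria, Birc5 read 5862, 2938 and 2888 at E12.5, 3075, 2116 and 3326 at E13.5, 2648, 2748 and 3110.0 at E14.5, 2162, 2801 and 2369.8 at E16.5, and 2302, 2046 and 2055 at E18.5. In ventricles, Birc5 read 3213, 3405 and 3553 at E12.5, 3495, 3804 and 3531 at E13.5, 2770.4, 3307 and 3559 at E14.5, 2718, 3134 and 2911 at E16.5, and 2964, 3083 and 2679.8 at E18.5. Birc5 in the heart region read 4002, 3718 and 4059.6 at E10.5 and 4011, 3216 and 3618 at E11.5. The E18.5 atrial arrays were among the lowest, together with E13.5 atrium array 2 and E16.5 atrium array 1, and in each chamber E18.5 lay below E12.5. Birc5 differed by -0.78 ± 0.17 (adjusted p = 0.00131) in atria, by -0.45 ± 0.14 (adjusted p = 0.0255) without array 1, and by -0.22 ± 0.17 (adjusted p = 0.366) in ventricles. Cdca8 differed by -0.58 ± 0.13 (adjusted p = 0.00185) in atria and -0.32 ± 0.10 (adjusted p = 0.0353) without array 1, with -0.30 ± 0.13 (adjusted p = 0.0927) in ventricles.

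Of the 4 spindle checkpoint genes, which hold back anaphase, 1 was lower in ventricles and 2 in atria, or none in atria without E12.5 atrium array 1. Bub1b, the checkpoint protein BubR1, read 1438, 1503 and 1256 in E18.5 ventricles, against 2005, 2206 and 1791 in E12.5 ventricles, a difference of -0.51 ± 0.11 (adjusted p = 0.00122) with no overlap. Its atrial difference was -0.46 ± 0.11 (adjusted p = 0.00403), or -0.35 ± 0.12 (adjusted p = 0.0534) without array 1, which fell short of the threshold. In atria, Mad2l1 read 4108, 2057 and 2296 at E12.5, 2091, 1767 and 2401 at E13.5, 2025, 2084 and 2311 at E14.5, 2230.2, 2293 and 1984 at E16.5, and 2160.1, 2052 and 2009 at E18.5. In ventricles, Mad2l1 read 2087, 2349.6 and 2232 at E12.5, 2293, 2393 and 2514 at E13.5, 1859, 2277 and 2372 at E14.5, 2089, 2213 and 2299 at E16.5, and 2081, 2899.5 and 2313 at E18.5. Mad2l1 in the heart region read 2509, 2338 and 2524 at E10.5 and 2497, 2110.3 and 2030.0 at E11.5. Array 1 of E12.5 atria was far above the rest, and E18.5 ventricle array 2 was the next highest. Mad2l1, the Mad2 protein that inhibits Cdc20, was among the 3 most positive ventricular differences at 0.12 ± 0.16 (adjusted p = 0.631), and its atrial difference was -0.37 ± 0.16 (adjusted p = 0.084), or -0.07 ± 0.12 (adjusted p = 0.783) without array 1. Neither passed. Bub1, a kinetochore kinase, differed by -0.26 in ventricles and -0.49 in atria, the atrial value alone passing, and Ttk, the Mps1 kinase, by -0.26 and -0.24, with neither passing.

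Centromere and kinetochore genes numbered 6. With age none was called in ventricles and 4 were lower in atria, or 1, Cenpf, without E12.5 atrium array 1. Cenpf, a large kinetochore protein, read 1753, 1724 and 1575 in E18.5 atria, against 3931, 2425 and 2442 in E12.5 atria, with no overlap. Its atrial difference was -0.76 ± 0.14 (adjusted p = 0.000189), or -0.53 ± 0.12 (adjusted p = 0.00388) without array 1, and its ventricular difference was -0.22 ± 0.14 (adjusted p = 0.248). Cenpe, the motor that brings chromosomes to the equator, differed by -0.60 in atria and -0.36 in ventricles. The Ndc80 complex genes Nuf2, Spc25 and Ndc80 differed by -0.48, -0.45 and -0.36 in atria and by 0.05, -0.14 and -0.30 in ventricles. Of these atrial values those of Cenpe, Nuf2 and Spc25 passed with all arrays, and that of Ndc80 did not. In atria, Cenpa read 4003, 2902 and 3076 at E12.5, 3321, 2067 and 3463 at E13.5, 3367, 3068 and 2919.9 at E14.5, 2969, 2168 and 2440.0 at E16.5, and 3059, 3059 and 2573 at E18.5. In ventricles, Cenpa read 3744, 4033 and 3257 at E12.5, 4012, 4396 and 4508 at E13.5, 3017, 3864 and 4219.6 at E14.5, 3511, 3426 and 3903 at E16.5, and 3622, 3741 and 3468 at E18.5. Cenpa in the heart region read 4557, 4492 and 4626 at E10.5 and 4273, 3995 and 3826 at E11.5. The histone variant that marks centromeres had its highest group mean at E10.5, and in each chamber E18.5 overlapped E12.5. Cenpa differed with age by -0.02 ± 0.15 (adjusted p = 0.935) in ventricles and -0.19 ± 0.15 (adjusted p = 0.378) in atria, or -0.05 ± 0.15 (adjusted p = 0.882) in atria without array 1.

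Among 7 genes of spindle motors and spindle assembly, 2 were lower in ventricles, Kif2c and Kif4, and 3 other genes in atria, Nusap1, Tpx2 and Hmmr, or none in atria without E12.5 atrium array 1. In atria, Kif2c read 1830.5, 1445 and 1431 at E12.5, 1482, 1311 and 1763 at E13.5, 1499, 1409.9 and 1526 at E14.5, 1239, 1176 and 1223 at E16.5, and 1309.5, 1320.3 and 1182 at E18.5. In ventricles, Kif2c read 1557, 1639 and 1499 at E12.5, 1438, 1584 and 1784 at E13.5, 1158, 1558 and 1702 at E14.5, 1409, 1232 and 1279 at E16.5, and 1054, 997 and 1003 at E18.5. Kif2c in the heart region read 1769, 1666 and 1763 at E10.5 and 1593, 1703 and 1649 at E11.5. The 3 E18.5 ventricular arrays were the lowest of all 36 and those of E18.5 atria lay above them. Kif2c, a kinesin that takes microtubules apart, was 1.53-fold lower in E18.5 than in E12.5 ventricles, at -0.61 ± 0.11 (adjusted p = 0.000144), and its probe set may also bind related transcripts. The atrial difference was -0.29 ± 0.11 (adjusted p = 0.0567), or -0.18 ± 0.12 (adjusted p = 0.349) without array 1. Kif4, a chromosome-bound kinesin, differed by -0.31 ± 0.10 (adjusted p = 0.0253) in ventricles and -0.12 ± 0.10 (adjusted p = 0.421) in atria.

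In atria, Nusap1 read 5094, 1920.3 and 2037 at E12.5, 2031, 2210.5 and 2218 at E13.5, 1804, 1605 and 2084 at E14.5, 1661, 2565 and 1659 at E16.5, and 1523, 1551 and 1485 at E18.5. In ventricles, Nusap1 read 1672, 1867 and 2063 at E12.5, 1720.0, 1926 and 1856 at E13.5, 1690.1, 1806 and 1859 at E14.5, 1582, 1672 and 1550.2 at E16.5, and 1473, 1592 and 1386 at E18.5. Nusap1 in the heart region read 2136, 1933 and 2015 at E10.5 and 2363, 1924 and 2346 at E11.5. E12.5 atrium array 1 was far above all others and E16.5 atrium array 2 was second. Nusap1, a microtubule bundler, differed by -0.83 ± 0.20 (adjusted p = 0.00333) in atria, or -0.38 ± 0.13 (adjusted p = 0.0547) without array 1, and by -0.33 ± 0.20 (adjusted p = 0.246) in ventricles. In atria, Hmmr read 3333, 1839.5 and 2134 at E12.5, 1955, 1622 and 2082 at E13.5, 1629, 2056 and 1959 at E14.5, 1854, 1925 and 1742 at E16.5, and 2036, 1570.5 and 1824 at E18.5. In ventricles, Hmmr read 1850.3, 1939 and 2023 at E12.5, 1992, 1869.8 and 2052 at E13.5, 1899.8, 1730.3 and 2071 at E14.5, 1785, 1866 and 2086 at E16.5, and 2221, 2280.2 and 1900.2 at E18.5. Hmmr in the heart region read 1979, 1972 and 1985 at E10.5 and 1763, 1676 and 1797 at E11.5. Apart from array 1 of E12.5 atria, E18.5 overlapped E12.5 in both chambers. Hmmr, a spindle assembly factor, differed by 0.13 ± 0.14 (adjusted p = 0.506) in ventricles, the second most positive value, and by -0.39 ± 0.14 (adjusted p = 0.0382) in atria, or -0.14 ± 0.11 (adjusted p = 0.479) without array 1. Tpx2, which activates Aurora A on the spindle, differed by -0.17 in ventricles and -0.46 in atria, where it passed with all arrays. Kif11, the motor that pushes spindle poles apart, differed by 0.02 and -0.30, and Kif22, a motor on chromosome arms, by -0.20 and -0.28, with none of the 4 values passing. The probe set of Kif22 may also bind related transcripts.

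Genes of the anaphase-promoting complex pathway included Ube2c, the ubiquitin-conjugating enzyme of the complex, Cdc20, its activator, Pttg1, the securin it destroys, and Cdca3. In ventricles 1 of the 4 was lower and in atria 3, or 1 without E12.5 atrium array 1. Ube2c read 4885, 4718 and 3919 in E18.5 ventricles, against 5608, 5705 and 6794 in E12.5 ventricles, and 4182, 3818 and 3798 in E18.5 atria, against 7501, 5396 and 5807 in E12.5 atria. No E18.5 array reached the E12.5 arrays of its chamber. Ube2c differed by -0.42 ± 0.13 (adjusted p = 0.014) in ventricles and -0.65 ± 0.13 (adjusted p = 0.000493) in atria, or -0.51 ± 0.13 (adjusted p = 0.0102) without array 1. In atria, Cdc20 read 5401, 3557 and 3250.0 at E12.5, 3715, 2982 and 4001 at E13.5, 3361, 3113 and 3486 at E14.5, 3417, 3564 and 3486 at E16.5, and 3160.1, 2872 and 2719 at E18.5. In ventricles, Cdc20 read 3583, 3479.8 and 3725 at E12.5, 3198, 3616 and 3872 at E13.5, 3252, 3168 and 3652 at E14.5, 3225, 3486 and 3372 at E16.5, and 3520.0, 3422 and 2949 at E18.5. Cdc20 in the heart region read 4069, 3944 and 4008 at E10.5 and 3511, 3526 and 3624 at E11.5. Ventricular ages overlapped, while E18.5 atria lay below E12.5 atria. Cdc20 differed by -0.44 ± 0.12 (adjusted p = 0.00727) in atria, or -0.22 ± 0.10 (adjusted p = 0.143) without array 1, and by -0.13 ± 0.12 (adjusted p = 0.468) in ventricles, and its probe set may also bind related transcripts. In atria, Pttg1 read 6236, 6259 and 6875 at E12.5, 5639.7, 5857 and 5756 at E13.5, 5055, 6439 and 6639.9 at E14.5, 5438, 7883 and 5645 at E16.5, and 5991, 5582 and 5394 at E18.5. In ventricles, Pttg1 read 5252, 4909.9 and 5894 at E12.5, 5172, 5253 and 4881 at E13.5, 5742, 4288 and 5094 at E14.5, 4494, 5421 and 5538 at E16.5, and 5695, 6256 and 4908 at E18.5. Pttg1 in the heart region read 5855, 5587 and 5502 at E10.5 and 5010.2, 5292 and 4926 at E11.5. E16.5 atrium array 2 was the highest of all arrays, and no ventricular age stood apart. Pttg1 differed with age by 0.07 ± 0.12 (adjusted p = 0.725) in ventricles and -0.19 ± 0.12 (adjusted p = 0.265) in atria, or -0.21 ± 0.14 (adjusted p = 0.322) without array 1. Cdca3, a trigger of Wee1 kinase destruction, differed by -0.18 in ventricles and -0.49 in atria, where it passed with all arrays.

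Cytokinesis genes had median differences of -0.15 in ventricles and -0.09 in atria, or 0.02 in atria without array 1. Of 6, 1 was lower in ventricles, Ect2, the activator of RhoA at the equator, and 1 in atria, Kif20a, a midzone kinesin, or none in atria without E12.5 atrium array 1. In atria, Anln read 3413, 2911 and 3223 at E12.5, 3325, 2659.6 and 3267 at E13.5, 2634, 2937 and 3241 at E14.5, 3279, 3204 and 3153 at E16.5, and 3032, 3316 and 3011 at E18.5. In ventricles, Anln read 2968, 3327 and 2990.5 at E12.5, 3183, 3156 and 3258 at E13.5, 2437, 2959.9 and 3097 at E14.5, 2977, 3076 and 2969 at E16.5, and 3121, 3132 and 2456 at E18.5. Anln in the heart region read 2788, 2843 and 2745 at E10.5 and 2738, 2718 and 2863 at E11.5. The heart region arrays lay near the low end of the chamber arrays, and E18.5 overlapped E12.5 in both chambers. Anln differed by -0.10 ± 0.10 (adjusted p = 0.488) in ventricles and -0.03 ± 0.10 (adjusted p = 0.876) in atria, or 0.02 ± 0.11 (adjusted p = 0.915) without array 1. In atria, Racgap1 read 2352, 2102 and 2144 at E12.5, 2344, 1610.3 and 2209 at E13.5, 1889, 2038 and 2189.5 at E14.5, 1905, 1899 and 1947 at E16.5, and 1952, 1843 and 1805 at E18.5. In ventricles, Racgap1 read 1663, 2129 and 1938 at E12.5, 2116, 2339 and 2193 at E13.5, 2180.2, 2396 and 2013 at E14.5, 2095, 2485 and 3271 at E16.5, and 2161, 1934 and 2238 at E18.5. Racgap1 in the heart region read 2421, 2292 and 2181 at E10.5 and 2205, 1987 and 2009.7 at E11.5. E16.5 ventricle array 3 was the highest of all, and ventricular E18.5 overlapped E12.5. Racgap1, a subunit of the centralspindlin complex, differed by 0.15 ± 0.12 (adjusted p = 0.404) in ventricles, the most positive value of the 43, and by -0.23 ± 0.12 (adjusted p = 0.175) in atria, or -0.18 ± 0.14 (adjusted p = 0.417) without array 1.

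In atria, Kif23 read 2285, 2012 and 1128 at E12.5, 1935, 1669.8 and 2009 at E13.5, 1763, 1723 and 1982 at E14.5, 1407, 1348 and 2016 at E16.5, and 1604, 1794 and 1594 at E18.5. In ventricles, Kif23 read 1488, 1903 and 2452 at E12.5, 2156, 2103 and 2069.7 at E13.5, 1406, 2038 and 2119 at E14.5, 1897, 1643 and 2046 at E16.5, and 1827, 1620.0 and 1538 at E18.5. Kif23 in the heart region read 2280.0, 2335 and 1752 at E10.5 and 1934, 1862 and 2127 at E11.5. E12.5 atrium array 3 was the lowest of all and within E12.5 both chambers were widely spread. Kif23, the kinesin of centralspindlin, differed by -0.20 ± 0.19 (adjusted p = 0.475) in ventricles and -0.06 ± 0.19 (adjusted p = 0.86) in atria, or 0.14 ± 0.20 (adjusted p = 0.714) without array 1. In atria, Prc1 read 2928, 1967 and 2161 at E12.5, 2266, 1621 and 2331 at E13.5, 2016, 2217 and 2008 at E14.5, 2166, 2126 and 1897 at E16.5, and 2282, 2235 and 2030.3 at E18.5. In ventricles, Prc1 read 2532, 2442 and 2648 at E12.5, 2356, 2448 and 2500.1 at E13.5, 2351, 2286 and 2389 at E14.5, 2100.1, 2271 and 2430.0 at E16.5, and 2407, 2805 and 2517 at E18.5. Prc1 in the heart region read 2105, 2017 and 2220.1 at E10.5 and 2313, 2291 and 2219.5 at E11.5. Prc1, the bundler of midzone microtubules, had its highest group mean in E18.5 ventricles. Its differences with age were 0.02 ± 0.11 (adjusted p = 0.932) in ventricles and -0.09 ± 0.11 (adjusted p = 0.624) in atria, or 0.08 ± 0.11 (adjusted p = 0.686) without array 1. Ect2 read 1764, 1936 and 2002 in E18.5 ventricles, against 2338, 2679 and 2127 in E12.5 ventricles, with a difference of -0.32 ± 0.11 (adjusted p = 0.0322), and in atria the difference was -0.09 ± 0.11 (adjusted p = 0.605). Kif20a differed by -0.43 ± 0.14 (adjusted p = 0.0218) in atria and -0.26 ± 0.14 (adjusted p = 0.169) in ventricles.

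The transcription factor Foxm1, which activates many of the genes of the list, was not called with age in either chamber. In atria, Foxm1 read 927, 923 and 839.9 at E12.5, 789.5, 642 and 796 at E13.5, 780.1, 825 and 816 at E14.5, 699, 572 and 802 at E16.5, and 693, 764 and 655 at E18.5. In ventricles, Foxm1 read 1048, 1031 and 914 at E12.5, 929.9, 1063 and 764 at E13.5, 1261, 961 and 857 at E14.5, 950.3, 870.3 and 803 at E16.5, and 1144, 846 and 828 at E18.5. Foxm1 in the heart region read 1098, 1122 and 1068 at E10.5 and 894, 791 and 949 at E11.5. Every atrial array lay below every ventricular array at E14.5, E16.5 and E18.5, and ventricle array 1 was high at E14.5 and at E18.5. Foxm1 differed with age by -0.10 ± 0.14 (adjusted p = 0.643) in ventricles and -0.34 ± 0.14 (adjusted p = 0.068) in atria, or -0.32 ± 0.15 (adjusted p = 0.178) without E12.5 atrium array 1.

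Between neighbouring ages no gene of the list was called in either chamber. Background calls over all probe sets were few in these 8 comparisons, with none at E13.5 against E12.5 in either chamber or at E14.5 against E13.5 in atria. In ventricles 0.121% of probe sets were higher and 0.00367% lower at E14.5 against E13.5, 0.528% and 0.455% at E16.5 against E14.5, and 0.0917% and 0.125% at E18.5 against E16.5. In atria the shares were 0.216% higher and 0.110% lower for E16.5 against E14.5, and 0.158% in each direction for E18.5 against E16.5. Unadjusted p-values under 0.05 were reached by 1, 0, 1 and 4 genes in the successive ventricular steps from E12.5 and by 20, 0, 4 and 2 in the atrial ones. The median ventricular differences of the 43 genes were -0.02 for E13.5 against E12.5, -0.07 for E14.5 against E13.5, -0.11 for E16.5 against E14.5 and -0.07 for E18.5 against E16.5. In atria they were -0.28, -0.01, -0.12 and -0.04. The first atrial step was -0.08 without E12.5 atrium array 1 and 0.07 with E13.5 atrium array 2 left out as well, so its direction depended on 2 arrays. Without E12.5 atrium array 3, 9 genes were called lower in this first atrial step, but the share of all probe sets lower in that fit is not given here. In that step Mki67 had -0.61 ± 0.21 (adjusted p = 0.238), Nuf2 -0.50 ± 0.13 (adjusted p = 0.174) and Aurka -0.46 ± 0.14 (adjusted p = 0.19). The ventricular mean of Mki67 was lower at the later age in all 4 steps, with no step past the threshold. In the last ventricular step the most negative values were Smc4 at -0.36 ± 0.15 (adjusted p = 0.39), Kif2c at -0.35 ± 0.11 (adjusted p = 0.213) and Bub1b at -0.30 ± 0.11 (adjusted p = 0.326). In the last atrial step Ube2c had -0.36 ± 0.13 (adjusted p = 0.283), Nusap1 -0.33 ± 0.20 (adjusted p = 0.637) and Cdc20 -0.26 ± 0.12 (adjusted p = 0.472). At E16.5 against E14.5 Ect2 led in ventricles, at -0.34 ± 0.11 (adjusted p = 0.141), and Melk in atria, at -0.34 ± 0.14 (adjusted p = 0.364).

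Whether the E18.5 against E12.5 differences were unequal between the chambers was tested directly. The atrial minus the ventricular change was called for no gene of the list, against 2.66% of all probe sets higher and 1.12% lower, and 7 genes had an unadjusted p under 0.05. Its median was -0.23, and 0.00 without E12.5 atrium array 1. The most negative values were those of Birc5 at -0.56 ± 0.24 (adjusted p = 0.205), Cenpf at -0.54 ± 0.19 (adjusted p = 0.114) and Nuf2 at -0.53 ± 0.18 (adjusted p = 0.0883). Without array 1 they were -0.23 ± 0.18 (adjusted p = 0.625), -0.31 ± 0.16 (adjusted p = 0.389) and -0.32 ± 0.15 (adjusted p = 0.317). At the positive end stood Kif2c at 0.32 ± 0.16 (adjusted p = 0.284), Ect2 at 0.23 ± 0.16 (adjusted p = 0.471) and Kif4 at 0.18 ± 0.15 (adjusted p = 0.541). The counts of 25 genes in atria and 10 in ventricles are therefore no evidence that the chambers differed.

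Over the 5 ages, 13 of the 43 genes were lower in atria than in ventricles and 1, Pttg1, was higher. These 13 were 30.2% of the list, against a background of 21.5% lower and 20.9% higher. The 13 genes were Melk, Cenpa, Foxm1, Cenpf, Birc5, Aurka, Nek2, Prc1, Kif11, Kif20a, Ccna2, Cdk1 and Cdca8. The median of the 43 was -0.09, against -0.01 over all probe sets. Without E12.5 atrium array 1 there were 20 lower and 1 higher, with 21.4% of all probe sets lower and 21.2% higher. With both outlying arrays left out there were 19 and 3 (21.8% and 21.3% of all). Leaving out the atrial arrays with ventricular markers kept 1 array of E14.5 atria, so only the median is given, at -0.06. Markers of other cells also differed between the chambers. Erythroid markers were higher in atria in 5 of 7 cases, epicardial ones in 4 of 5, fibroblast and matrix ones in 4 of 5 and macrophage ones in 3 of 4, with none lower. Liver markers were higher in 2 of 5 cases, smooth muscle markers in 2 of 3 with 1 lower, and cardiomyocyte markers were lower in 2 of 6 and higher in 1. Lung and foregut markers were higher in 2 of 5 cases without E12.5 atrium array 1, with 0 lower. Their sums reached 3538 in E13.5, 7289 in E16.5 and 12035 in E18.5 atria, with medians of 407, 542 and 608. In ventricles of these ages they reached 520, 603 and 560. The part of these cells in the chamber difference was not tested. Melk, a kinase of the AMPK family, was 1.3-fold lower in atria. In atria, Melk read 908, 561 and 548 at E12.5, 573, 434 and 711 at E13.5, 628, 524 and 622 at E14.5, 494, 440.3 and 458 at E16.5, and 481, 564 and 529 at E18.5. In ventricles, Melk read 792, 710.4 and 830.1 at E12.5, 773, 807 and 844 at E13.5, 796, 771 and 789 at E14.5, 702, 712 and 659.9 at E16.5, and 576, 689 and 552 at E18.5. Melk in the heart region read 992, 985 and 1102 at E10.5 and 709.6, 778 and 769.9 at E11.5. Every atrial array lay below every ventricular array at E13.5, E14.5 and E16.5, and array 1 of E12.5 atria stood above the E12.5 ventricles. The mean difference of Melk was -0.38 ± 0.06 (adjusted p = 1.61e-05), or -0.43 ± 0.05 (adjusted p = 1.74e-07) without array 1. Its promoter had neither a CHR nor a CCAAT match.

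Cenpa was lower in atria by -0.36 ± 0.07 (adjusted p = 4.28e-05), or -0.39 ± 0.06 (adjusted p = 1.12e-05) without array 1. Atrial and ventricular arrays of Cenpa did not overlap at E13.5, nor at E16.5 or E18.5. Foxm1 was lower in atria by -0.30 ± 0.06 (adjusted p = 0.000203), or -0.31 ± 0.06 (adjusted p = 0.000262) without array 1. Cenpf differed by -0.27 ± 0.06 (adjusted p = 0.000587) and Birc5 by -0.23 ± 0.08 (adjusted p = 0.0182), while the other 8 genes called lower differed by -0.19 to -0.15. Pttg1 was 1.15-fold higher in atria, at 0.20 ± 0.05 (adjusted p = 0.00316), or 0.21 ± 0.06 (adjusted p = 0.00353) without array 1. Its probe set, the brightest of 3, is of a kind that may bind several transcripts, as are those of Nek2, Prc1 and Cdca8. Nusap1 had 0.22 ± 0.09 (adjusted p = 0.0523) and Smc4 0.15 ± 0.07 (adjusted p = 0.0655), the other positive ends of the range, and neither passed. Cdc20 had a mean difference of 0.00 (adjusted p = 0.995) by its brightest probe set, but -0.16 (adjusted p = 0.0397) by the mean of its probe sets.

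**Figure D5:**
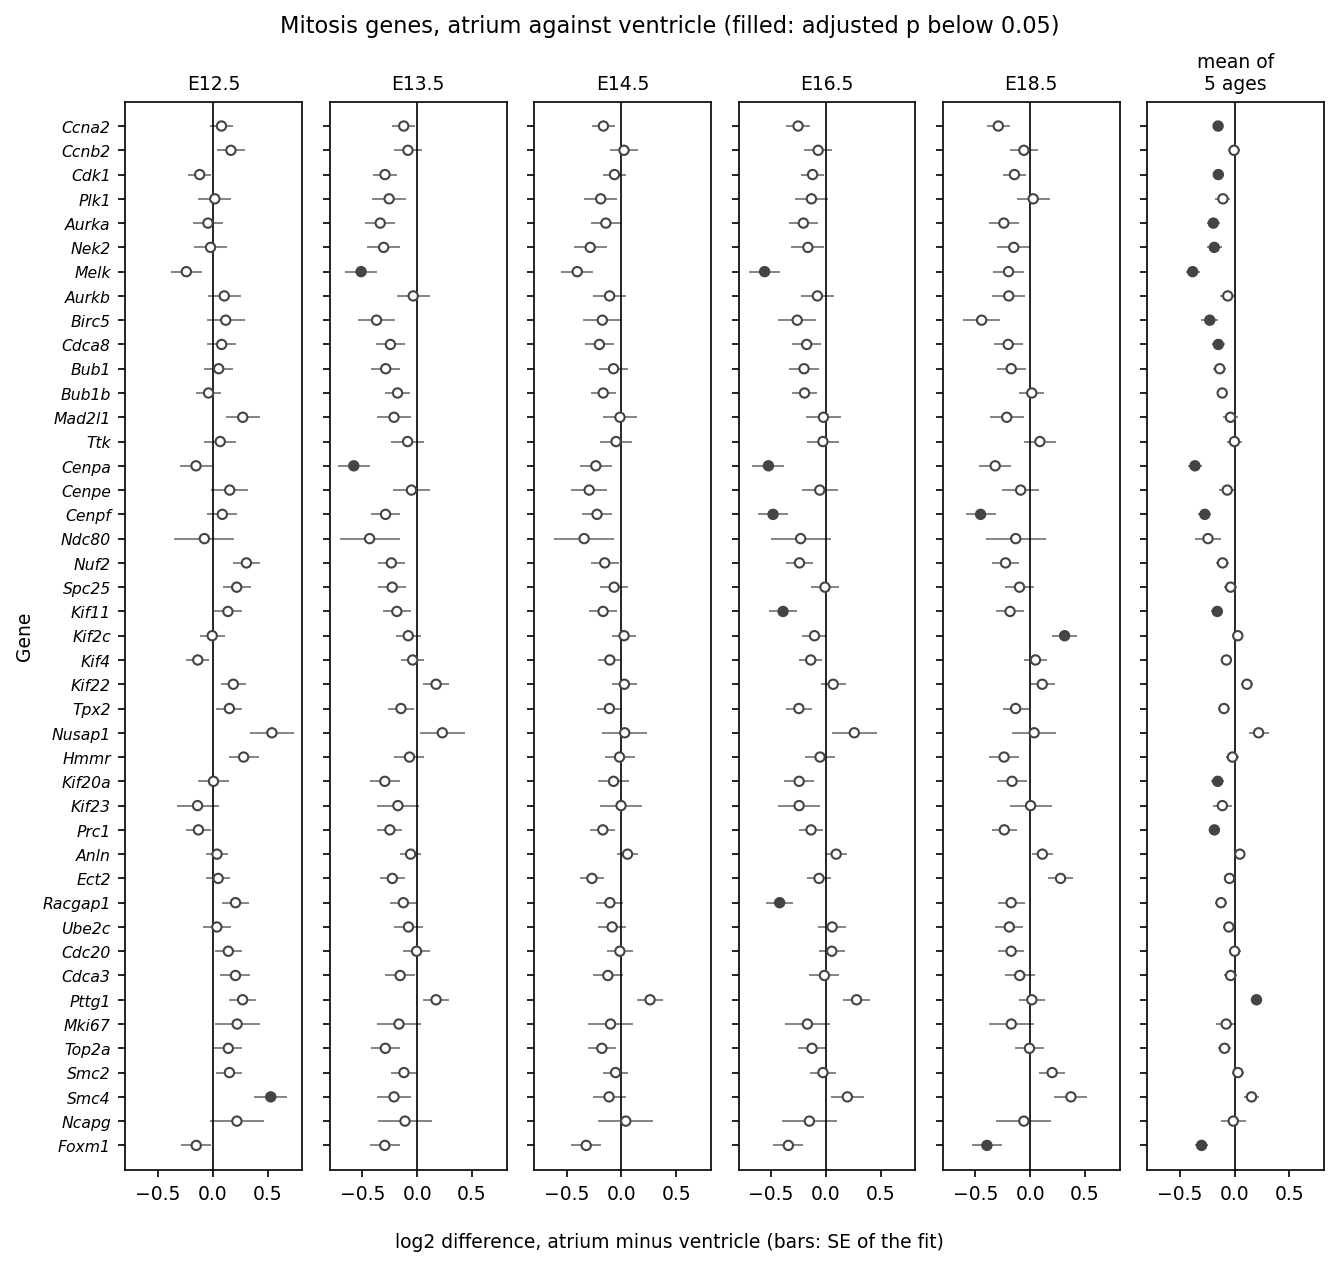
Log2 difference of atria against ventricles for the 43 genes (rows) over 5 ages, with bars of 1 SE and filled points for genes past an adjusted p of 0.05. Melk (-0.38), Cenpa (-0.36) and Foxm1 (-0.30) lie at the lower end, Pttg1 (0.20) is the filled point above 0, and 13 filled points lie below 0.

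At single ages few genes passed. At E12.5 Smc4 was higher in atria, at 0.53 ± 0.15 (adjusted p = 0.0238), with 4.40% of all probe sets higher and 5.27% lower. Without E12.5 atrium array 1 Smc4 had 0.27 ± 0.13 (adjusted p = 0.291) and Melk was lower instead, at -0.47 ± 0.13 (adjusted p = 0.0334). In that fit 2.14% of all probe sets were lower and 2.37% higher. Without E12.5 ventricle array 1 or 3 no gene was higher, and without E12.5 atrium array 2 or 3 there were 3. At E13.5 Cenpa was lower by -0.58 ± 0.15 (adjusted p = 0.00844) and Melk by -0.51 ± 0.14 (adjusted p = 0.0179), with 6.27% of all probe sets lower and 5.87% higher. Without E13.5 atrium array 2 none was called, and without E13.5 ventricle array 3 there was 1. With both outlying atrial arrays left out none was called at E13.5, with 5.13% of all probe sets lower and 4.23% higher. At E14.5 no gene was called, with 2.38% of all probe sets lower and 3.80% higher, 4 genes had an unadjusted p under 0.05, and Melk was the most negative at -0.40 ± 0.14 (adjusted p = 0.0873). Atrial arrays 1 and 2 of this age carried ventricular markers. At E16.5, 5 genes were lower, with a background of 8.32% lower and 8.55% higher: Melk by -0.56, Cenpa by -0.52, Cenpf by -0.48, Racgap1 by -0.42 and Kif11 by -0.39. Without E16.5 atrium array 2, which carried ventricular markers, 2 were lower, and without E16.5 ventricle array 1 or 3 there were 3. Without all 4 such atrial arrays 1 was lower, with 6.57% of all probe sets lower and 7.99% higher. At E18.5 Cenpf was lower by -0.45 ± 0.14 (adjusted p = 0.0177) and Foxm1 by -0.40 ± 0.14 (adjusted p = 0.0408), with a background of 8.53%, and Kif2c was higher by 0.31 ± 0.11 (adjusted p = 0.048), with a background of 11.0%. The number lower at E18.5 was 0 or 1 when any of 4 single arrays was left out, ventricle 1 or 2 or atrium 1 or 3. Apart from the fit without E12.5 atrium array 1, shares of all probe sets are not given here for fits without 1 array.

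The neighbours of these genes in the cell cycle were counted in the same fit. Of 51 other mitosis genes tested, 19 were lower in E18.5 than in E12.5 ventricles and none was higher, with a median of -0.33. The share lower was 37.3%, against 16.0% of all probe sets. Tacc3, a spindle microtubule stabiliser, had -0.88 ± 0.15, Psrc1, a spindle protein, -0.87 ± 0.13 and Trip13, a checkpoint ATPase, -0.83 ± 0.12. In atria 31 were lower (60.8%, against 11.7% of all probe sets), or 18 without E12.5 atrium array 1 (35.3%, against 6.72%). Fbxo5, an inhibitor of the anaphase-promoting complex, had -1.13 ± 0.20, or -0.89 ± 0.21 without array 1. Incenp, the scaffold of the passenger complex, had -1.07 ± 0.24, or -0.64 ± 0.20, and Cdc25b, a Cdk1-activating phosphatase, -0.96 ± 0.26, or -0.66 ± 0.26, which was not called. DNA replication genes were lower in 19 of 42 cases in ventricles (45.2%) and 31 of 42 in atria (73.8%), or 22 without array 1 (52.4%), against the same background shares, and none was higher. Tyms, the thymidylate synthase, differed by -1.31 ± 0.34, Pole, a DNA polymerase subunit, by -1.05 ± 0.24 and Lig1, a DNA ligase, by -0.89 ± 0.17 in ventricles. In atria Pole differed by -1.05 ± 0.24, Prim2, a primase subunit, by -1.05 ± 0.18 and Cdc6, a licensing factor, by -1.01 ± 0.21. Without array 1 these were -0.94 ± 0.27, -0.89 ± 0.20 and -0.63 ± 0.18, and all 3 were still called.

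G1 cyclins, cyclin-dependent kinases and inhibitors went both ways: of 18 tested, 5 were lower and 6 higher in E18.5 than in E12.5 ventricles, and 7 lower and 3 higher in atria, or 6 and 5 without array 1. All probe sets were lower in 16.0% and higher in 12.7% of cases in ventricles, lower in 11.7% and higher in 12.6% in atria, and lower in 6.72% and higher in 7.29% without array 1. Cdkn1c, the inhibitor p57, was lower by -2.09 ± 0.18 in ventricles and -1.08 ± 0.18 in atria. Cdk4 was lower by -0.88 ± 0.09 in ventricles, and Ccnd3, a D-type cyclin, by -0.42 ± 0.11 in ventricles and -0.78 ± 0.11 in atria. The inhibitors Cdkn2c and Cdkn1a were higher in ventricles, by 1.15 ± 0.20 and 0.93 ± 0.18, and so was Ccng1, a p53 target, by 0.74 ± 0.11. In atria Cdkn1a was higher by 0.76 ± 0.18, Rbl2, the pocket protein p130, by 0.60 ± 0.13 and Ccng1 by 0.59 ± 0.11, while Ccne1, cyclin E1, was lower by -0.65 ± 0.15. These 6 atrial genes were called without array 1 as well, between -1.22 ± 0.20 for Cdkn1c and 0.72 ± 0.20 for Cdkn1a. Of 18 E2F, MYB and DREAM factors, which include Foxm1, 6 were lower in ventricles (33.3%) and 7 in atria (38.9%), or 6 without array 1 (33.3%), and none was higher. E2f2 differed by -0.99 ± 0.37, E2f8 by -0.83 ± 0.17 and E2f5 by -0.58 ± 0.16 in ventricles, and in atria E2f2 by -1.92 ± 0.37, Mybl2, which is B-Myb, by -0.92 ± 0.21 and E2f8 by -0.69 ± 0.17. Without array 1 the atrial values were -1.52 ± 0.39, -0.55 ± 0.19 and -0.46 ± 0.16, and E2f8 was not called. Erythroid cells also divide in the fetus and their markers were lower with age in both chambers, and their part in these lists was not tested.

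The promoter letters were also set beside the ventricular calls, as a description. Of 37 measured genes with a promoter, all 10 that were lower in ventricles had a CHR match, as did 19 of the 27 that were not called, and 9 of the 10 had a CCAAT box, as did 19 of the 27. The 6 genes with neither motif were among the 27. In E18.5 atria Birc5, Nusap1 and Nuf2 of these 6 were nevertheless lower with all arrays, and Birc5 also without E12.5 atrium array 1. Mad2l1, Melk and Pttg1 were not called with age in atria. Other probe sets of the same genes that passed the filter, 49 for 29 genes, gave 7 lower and 1 higher for E18.5 against E12.5 in ventricles. This was 14.3% lower, under the 16.0% of all probe sets. They gave 16 lower and 0 higher in atria (32.7% lower, against 11.7% of all) and 24 lower and 2 higher for atria against ventricles (49.0% lower, against 21.5% of all). In ventricles 31 of these 49 differed by less than 0. Of the 3 probe sets of Top2a, another differed by -0.73 (adjusted p = 0.0158) in ventricles, and the brightest one by -0.43 ± 0.13. No value is given here for the remaining one. In 13 genes the probe set used was the only one.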

How the data were processed

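Per the labels, total RNA of each sample was hybridised to an Affymetrix array. The deposited table held linear intensities of 45101 probe sets in 36 columns, 1 per array. The steps by which the authors summarised and scaled these intensities are not stated in the labels used here, so their effect on single values is unknown.

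Control probe sets (64) were left out. A probe set was tested where 3 or more arrays exceeded 171.8, the median of all values in the table, which left 27256. A pseudocount of 17, which is 10% of that median, was added before log2, and this understates changes of dim probe sets. R 4.3.3 with limma 3.58.1 fitted 12 group means to all arrays with an intensity trend. Each of 18 comparisons took a two-sided test with Benjamini-Hochberg adjustment across every probe set tested, and 0.05 was the threshold. The script was tested on simulated data. Gene names came from the platform's annotation, and 34945 probe sets had 1 gene symbol. The names of arrays follow the replicate numbers of the titles.

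The members and the gene lists were chosen with earlier results of these data known, so they are no independent support. Intensities on every array are printed for a set of 9 genes, Mki67, Top2a, Cdk1, Plk1, Aurkb, Birc5, Anln, Foxm1 and Cdc20, and for the 3 lowest and 3 highest differences in each of the 3 main comparisons, and Ccnb1 belonged to the set but had no probe set. Other members printed on single arrays were chosen after their values were seen, and from each related list the 3 largest called changes in a direction are named.

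The alternatives changed the scaling (quantile normalization or median centring), the pseudocount (1 or 68) or the filter (none, or 582.9, the 75th percentile). Others fitted only the compared arrays, blocked on the replicate number, alone or within an age, averaged all probe sets of a gene, or left out each array in turn. Leaving out both outlying atrial arrays together, and the 4 atrial arrays with ventricular markers, was added after seeing the data. For single alternatives, shares of all probe sets are given only without E12.5 atrium array 1, both outlying arrays or those 4 arrays. Same-numbered atrial and ventricular arrays of an age had correlations between -0.34 and 0.16 in their deviations from the group means, with 1 of 15 over 0.1, so the numbers were not taken to pair the samples. Promoters came from RefSeq with GRCm38.p6, and were searched with Python 3.11.15.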

Additional observations from a re-analysis of the deposited data

How the results depend on the processing

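With 12 groups of 3 arrays, differences between 2 groups of the size of their typical SE, 0.13 on the log2 scale, could not be told from 0. The typical SE was 0.06 for atria against ventricles over 5 ages. For the difference between chambers in the change with age it was 0.19. Counts of members called lower are given (higher for E12.5 atria against ventricles), against the reported 10 for ventricles with age, 25 for atria with age, 13 for atria against ventricles, and for the chambers 1 at E12.5, 2 at E13.5, none at E14.5, then 5 at E16.5 with 2 at E18.5. Median centring gave 5 for ventricles with age. The fit of only the compared arrays gave 3 for atria with age, 4 for the heart region against a reported 0, 0 at E12.5, 0 at E13.5, and for the last ages 3 at E16.5 with 4 at E18.5; fewer arrays estimate the spread in it. Quantile normalization gave 2 at E12.5 and 4 at E18.5, and no filter gave 1 at E18.5. The mean of probe sets gave 1 for the difference between chambers in the change with age, 0 at E12.5, 4 at E13.5 and 2 at E14.5, and it gave Cdc20 a chamber difference of -0.16 against a reported 0.00. With both outlying atrial arrays left out there were 10 for atria with age, 0 at E12.5 and 0 at E13.5. In that fit 2.4% of all probe sets were higher at E12.5 and 5.13% lower at E13.5. Without the atrial arrays with ventricular markers there was 1 at E16.5, with 1 at E18.5, where 6.57% and 8.6% of all probe sets were lower. Leaving out each array in turn gave 5 to 9 for ventricles with age and 7 to 29 for atria with age. It gave 0 to 9 for E13.5 against E12.5 atria, 0 to 2 for the difference between chambers and 10 to 20 for atria against ventricles. At E12.5 it gave 0 to 3, at E13.5 0 to 3, then 2 to 5 at E16.5 with 0 to 3 at E18.5. The replicate number as a block gave 10, 26 and 13 for the 3 main comparisons, and no count of calls moved by over 1.5 times. Treating the arrays of an age with the same number as a replicate block gave 7 for atria against ventricles, 0 at E12.5, 1 at E13.5, 1 at E16.5, then 0 at E18.5. The cause of these shifts was otherwise not tested. Over the single genes, 3205 values kept direction and call, 129 turned sign without being called, 103 lost the call and 62 gained it. The remaining 1 was that chamber difference of Cdc20, which went from 0.00 and not called to -0.16 and called lower.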
